A study of Homo sapiens with 42 samples.

Results

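The cleavage and polyadenylation factors described here are 10 genes of the machinery that cuts a nascent transcript and adds its poly(A) tail: CPSF1, CPSF2, CPSF3, CPSF4, CPSF6, NUDT21, CSTF1, CSTF2, CSTF3 and PCF11. They were taken by symbol from a table of 26228 gene rows. All 10 were found, and all 10 were among the 12816 genes tested, which reached 1 FPKM in 3 or more libraries. The libraries are of poly(A) RNA from HAP1, a human line with a near-haploid genome that arose from leukaemia cells, in 2 versions: cells with C312S in CDK7, which removes the cysteine that covalent CDK7 inhibitors bind, and wild-type (WT) cells. Each line received YKL at 500 nM or 2 µM, THZ531, THZ1, a combination at 500 nM or 2 µM, or DMSO, the vehicle, for 24 h, which gives 14 groups of 3 libraries. YKL is read as the CDK7-selective covalent compound that the series title describes. THZ531 targets CDK12 and CDK13 covalently, and THZ1 targets CDK7 and, less selectively, CDK12 and CDK13. Treatment labels leave the compounds of a combination unnamed, and the column names for it carry the numbers of THZ531 and of YKL. The labels state no dose for THZ531 or THZ1. Whether the C312S line is 1 clone, and whether the 3 libraries of a group come from separate cultures, is not stated in the sources used here, so p-values measure library-to-library spread, and that spread may be technical.

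The 3′ end of most messenger RNAs is made in a coupled reaction. The cleavage and polyadenylation specificity factor (CPSF) recognises the poly(A) signal and carries the endonuclease, and the cleavage stimulation factor (CSTF) binds the downstream GU-rich element. Cleavage factor I binds UGUA elements and helps to choose among alternative sites, and cleavage factor II, with PCF11, links the reaction to the tail of RNA polymerase II and to termination. CDK12 and CDK13 phosphorylate that tail during elongation, and CDK7 phosphorylates it near the start of genes. The values below are mRNA levels of the factors and say nothing of where transcripts were cut.

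Levels are FPKM as deposited, that is, sequenced fragments scaled to transcript length and to library size. Read counts are not part of the table, so the depth of each library is unknown and errors are the spread over 3 libraries. Total FPKM over genes was 780085 to 913367 in the 6 C312S libraries with DMSO or THZ1, against 542909 to 597533 in the other 15 C312S libraries, so the C312S DMSO group stood apart from most of the C312S groups set against it. In WT it was 447938 to 598551 in the 12 libraries with YKL, alone or in a combination, and 525639 to 637758 in the 9 without. Blood markers were near 0 in all libraries, with HBG1 and CD3E listed at 0 throughout, 1 of 10 above 1 FPKM in any library and a sum of 0.200 to 1.51 FPKM. Of the epithelial markers 2 of 7 passed 1 FPKM, with KRT14 at 0 and a sum of 23.5 to 44.5 FPKM. Of the fibroblast markers 3 of 7 passed it, with DCN and LUM at 0, and their sum differed by line and treatment: 1.84 to 3.84 FPKM in the 21 C312S libraries, and 15.9 to 18.6 FPKM in WT with YKL against 19.3 to 24.97 FPKM in WT without it.

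In WT cells with DMSO the 10 factors spanned a several-fold range on this per-length scale. NUDT21, the UGUA-binding subunit of cleavage factor I, was highest at 88.1 ± 5.42 FPKM, followed by the endonuclease CPSF3 at 69.4 ± 5.04 and the CSTF scaffold CSTF3 at 61.9 ± 0.645 (SD, n = 3 each). PCF11 was lowest at 15.0 ± 0.381 FPKM, and the other 6 lay between 24.0 and 44.4 FPKM. CPSF1, CPSF4 and CSTF1, at 24.0 ± 1.18, 25.5 ± 0.346 and 26.2 ± 0.796 FPKM, were neighbours whose libraries overlapped. Across the 14 groups the highest mean exceeded the lowest by 2.80 times for CPSF2, 2.71 for CPSF1, 2.70 for CPSF3, 2.59 for CPSF6 and 2.07 for PCF11, and by 1.41 to 1.93 times for the other 5. Most neighbours in these orders did not differ beyond their spread: of the 13 neighbouring pairs of groups, 12 overlapped for CPSF4 and CSTF2, 11 for CSTF1 and CSTF3, 10 for CPSF1, CPSF3, CPSF6 and NUDT21, and 8 for CPSF2 and PCF11. The widest gap belonged to CPSF6, whose 4 lowest groups were separated from the other 10 by a ratio of means of 1.92.

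**Figure D1:**
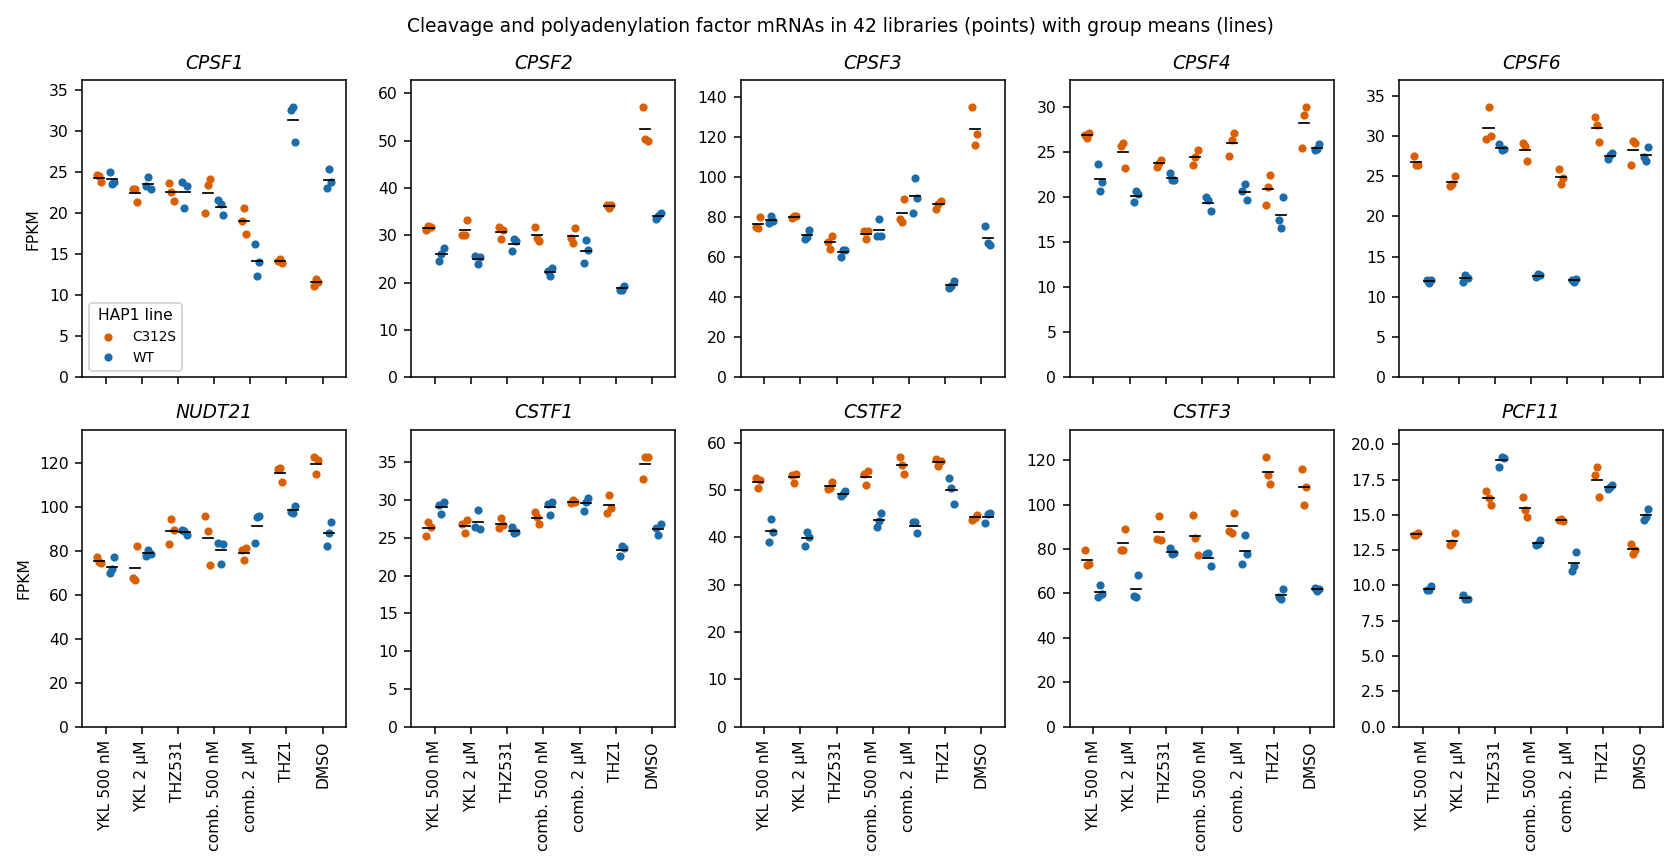
FPKM (y axis, from 0) of each factor mRNA in 42 libraries, by treatment (x axis), with C312S in orange left of WT in blue; points are libraries and lines are group means of 3. CPSF6 shows the clearest split, with 12 WT libraries that hold YKL at 11.7 to 12.8 FPKM and the other 30 libraries at 23.8 to 33.6 FPKM.

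The first question was which factors moved when WT cells were treated. With YKL at 500 nM, 2 of the 10 were higher and 6 lower than with DMSO by limma on log2(FPKM + 1) with Benjamini-Hochberg adjusted p under 0.05, where 63% of all genes tested were called (31.3% higher and 31.7% lower). With YKL at 2 µM none was higher and 5 were lower (65.3% of all genes, 31.8% higher and 33.5% lower). THZ531 had 3 higher and 3 lower (46.9% of all genes, 24% higher and 22.9% lower), and THZ1 had 4 higher and 4 lower (68.8% of all genes, 34% higher and 34.8% lower). The combination had 2 higher and 5 lower at 500 nM (68.2% of all genes, 34% higher and 34.2% lower), and 3 higher and 5 lower at 2 µM (77.1% of all genes, 38.9% higher and 38.1% lower). So many genes changed that the share of factors called, 5 to 8 of 10, was near the share of all genes, and the counts alone single out nothing. The median change of the 10 was -0.15 with YKL at either dose, -0.16 and -0.18 with the combination at 500 nM and 2 µM, -0.03 with THZ1 and -0.00 with THZ531, while the median over all genes stayed within -0.01 and 0.01 in these 6 comparisons.

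**Figure D2:**
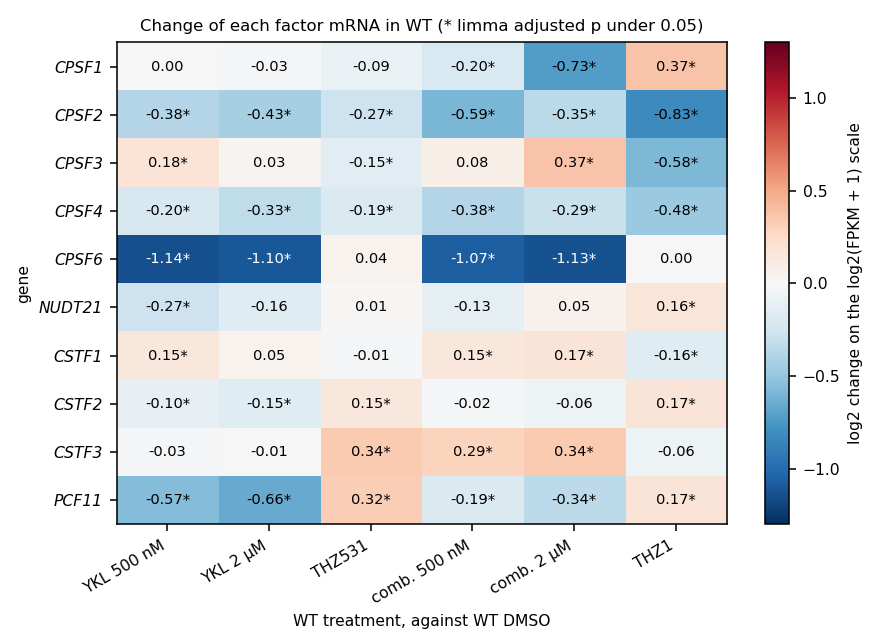
Log2 change of each factor mRNA (rows) in each WT treatment against WT DMSO (columns), on the log2(FPKM + 1) scale; red is higher and blue lower with treatment, and a star marks limma's adjusted p under 0.05. CPSF6 lies between -1.14 and -1.07 in the 4 treatments that hold YKL and at 0.04 and -0.00 with THZ531 and THZ1. Scaled to spike-ins all 10 are lower with THZ1. On equal total FPKM, of its 4 rises only that of CPSF1 stayed called (0.20). There NUDT21, CSTF2 and PCF11 were at -0.0076, -0.00042 and 0.01, not called.

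CPSF6, the larger subunit of cleavage factor I, was the factor that fell most, and it fell in each WT treatment that held YKL. Its libraries read 12.1, 11.7 and 12.1 FPKM with YKL 500 nM and 11.9, 12.8 and 12.4 with YKL 2 µM. With the combination they read 12.4, 12.8 and 12.7 at 500 nM and 12.1, 11.9 and 12.3 at 2 µM. They read 28.96, 28.3 and 28.4 FPKM with THZ531, 27.1, 27.6 and 27.9 with THZ1, and 27.4, 26.9 and 28.6 with DMSO. No library with YKL came near a library without it, and the 4 groups with YKL lay within 1 FPKM of each other at both doses, with or without the second compound. Against DMSO the log2 changes were -1.14, -1.10, -1.07 and -1.13 in that order (SE 0.0429 each, adjusted p = 2.21e-20, 3.17e-20, 1.08e-19 and 1.28e-20), and CPSF6 stayed lower and called under all 4 scalings of the libraries. With THZ531 the change was 0.04 (95% interval -0.04 to 0.13, adjusted p = 0.407) and with THZ1 -0.00 (-0.09 to 0.08, adjusted p = 0.936) as deposited. The THZ1 change was called lower on equal total FPKM (-0.17, adjusted p = 0.0119) and on spike-ins (-2.30, adjusted p = 1.52e-19), where the median gene fell by 1.99. The summed fibroblast markers were at 15.9 to 18.6 FPKM in WT with YKL and 19.3 to 24.97 in WT without. In the 21 C312S libraries the sum was 1.84 to 3.84 FPKM, where CPSF6 was at 23.8 to 33.6. The highest group means within the sum were those of THY1 (16.6), PDGFRA (7.49) and COL1A1 (2.63), and the other fibroblast markers reached at most 0.0251. The part of these markers in the CPSF6 result was not tested.

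In C312S cells the CPSF6 mRNA stayed in the upper range throughout. Its libraries read 27.5, 26.4 and 26.4 FPKM with YKL 500 nM and 23.8, 24.1 and 24.98 with YKL 2 µM. In the combination libraries it was 29.2, 28.8 and 26.9 at 500 nM and 25.9, 24.1 and 24.8 at 2 µM. With THZ531 they read 29.6, 33.6 and 30.0 FPKM, with THZ1 32.3, 31.4 and 29.2, and with DMSO 26.4, 29.4 and 29.1. All 21 C312S libraries, at 23.8 to 33.6 FPKM, lay above the 12 WT libraries with YKL. The groups with 2 µM were the lowest of the line, and as deposited each of their libraries lay below the C312S DMSO libraries. As deposited, C312S and WT cells with DMSO did not differ for this gene beyond the spread, at 28.3 ± 1.66 and 27.6 ± 0.848 FPKM (log2 difference 0.03, 95% interval -0.06 to 0.12). The difference was -0.46 on equal total FPKM and -1.36 on spike-ins, both called (adjusted p = 2.19e-08 and 4.1e-13).

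CPSF6 and PCF11 had the largest falls under YKL alone in WT and are shown with the 250 bases before their annotated starts. This window is where many transcription factors bind. CPSF2 and CPSF4 were also lower in the 4 WT treatments that hold YKL. With the combination CPSF2 (-0.59) fell more than PCF11 (-0.19) at 500 nM, and CPSF1 (-0.73) fell more than PCF11 (-0.34) at 2 µM. The sequences are RefSeq's, on the plus strand of GRCh38.p14, where both genes lie on the plus strand: chr12:69239319-69239568 for CPSF6 and chr11:83156881-83157130 for PCF11. Capitals mark matches, on either strand, to the CCAAT box (CCAAT), the GC box (GGGCGG), the core of ETS sites (CGGAAG) and the core of cAMP response elements (TGACGT).
CPSF6: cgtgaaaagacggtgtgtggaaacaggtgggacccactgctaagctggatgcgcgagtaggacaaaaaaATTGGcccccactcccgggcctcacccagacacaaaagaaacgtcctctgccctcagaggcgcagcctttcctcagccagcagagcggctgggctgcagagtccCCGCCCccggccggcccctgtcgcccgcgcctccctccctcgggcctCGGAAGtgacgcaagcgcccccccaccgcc
PCF11: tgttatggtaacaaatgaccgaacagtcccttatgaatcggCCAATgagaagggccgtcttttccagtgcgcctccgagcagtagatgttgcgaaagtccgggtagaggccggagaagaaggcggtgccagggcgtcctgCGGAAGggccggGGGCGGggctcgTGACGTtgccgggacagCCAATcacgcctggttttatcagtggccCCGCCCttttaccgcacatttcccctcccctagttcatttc
CPSF6 held 1 CCAAT box, 1 GC box and 1 ETS core, and PCF11 held 2 CCAAT boxes, 2 GC boxes, 1 ETS core and 1 cAMP response element core. Neither held TATAAA. Of 35116 promoter windows of this length 32.0% held a CCAAT box, 42.6% a GC box, 16.5% an ETS core, 7.10% the cAMP response element core and 10.7% TATAAA. Of 9 of the factors, 7 had a window with a CCAAT box, 6 a GC box, 7 an ETS core, 4 the cAMP response element core and 0 TATAAA. A factor was counted if any of its windows matched, while the shares are of single windows, so the counts and shares are unlike measures. A match is a description of the letters and not of a bound site.

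NUDT21, the partner that CPSF6 binds in cleavage factor I, had smaller changes. Its libraries read 69.7, 71.6 and 77.1 FPKM with YKL 500 nM and 77.9, 80.3 and 78.5 with YKL 2 µM, against 82.5, 88.4 and 93.3 with DMSO. The libraries of each YKL group lay below the DMSO libraries, with a log2 change of -0.27 at 500 nM (adjusted p = 0.00174), which was -0.036 and not called on equal total FPKM (adjusted p = 0.722). At 2 µM the change was -0.16, which did not pass (adjusted p = 0.0602) and was 0.13 when libraries were scaled to equal total FPKM. With the combination NUDT21 was at 80.3 ± 5.26 FPKM at 500 nM and 91.5 ± 7.05 at 2 µM, neither called. With THZ1 it was at 98.5 ± 1.71 FPKM, against 88.1 ± 5.42 with DMSO (log2 0.16, adjusted p = 0.0489), a call that was lost on leaving out any 1 of the 3 THZ1 libraries or DMSO replicate 1 or 2 (adjusted p up to 0.209) and that is not a rise when scaled to total FPKM or to spike-ins.

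PCF11 is the subunit of cleavage factor II that binds the tail of RNA polymerase II. In WT cells it fell with YKL and was higher with the CDK12 and CDK13 inhibitor. Its WT libraries read 9.67, 9.67 and 9.97 FPKM with YKL 500 nM and 9.33, 9.01 and 9.05 with YKL 2 µM. With the combination they read 12.9, 12.9 and 13.2 at 500 nM and 11.04, 11.4 and 12.4 at 2 µM. They read 18.4, 19.1 and 19.0 FPKM with THZ531, 16.8, 17.0 and 17.1 with THZ1, and 14.7, 14.8 and 15.4 with DMSO. Each of the 6 treatments was apart from DMSO: YKL alone gave the lowest libraries, the combination lay between YKL and DMSO, and THZ531 and THZ1 lay above DMSO. The log2 changes against DMSO were -0.57 and -0.66 with YKL at 500 nM and 2 µM, -0.19 and -0.34 with the combination, 0.32 with THZ531 and 0.17 with THZ1 (SE 0.0377 each, adjusted p = 3.2e-14, 6.85e-16, 5.31e-05, 1.15e-09, 5.85e-08 and 0.000178). The YKL falls, the fall with the combination at 2 µM and the THZ531 rise were called under all 4 scalings, the fall with the combination at 500 nM was -0.03 and not called on equal total FPKM, and the THZ1 rise was 0.01 on equal total FPKM and -2.04 on spike-ins.

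With the combination in WT, the falls of PCF11 were larger against THZ531 alone than against DMSO. PCF11 was itself higher with THZ531 than with DMSO, by 0.32. CPSF6 fell by about as much against either, and its own change with THZ531 against DMSO was 0.04, not called. With the combination at 500 nM 2 factors were higher and 5 lower than with THZ531 (61.1% of all genes, 31.5% higher and 29.7% lower), and at 2 µM 2 were higher and 4 lower (73.5% of all genes, 38.3% higher and 35.3% lower). CPSF6 changed by -1.12 and -1.17 on the log2 scale at 500 nM and 2 µM (adjusted p = 6.68e-20 and 7.86e-21), and PCF11 by -0.50 and -0.66 (adjusted p = 6.26e-13 and 4.01e-16), all called under the 4 scalings. CPSF3 was higher, by 0.23 and 0.52, and so was CSTF1, by 0.16 and 0.18, but both are lower on spike-ins. CPSF4 was lower at 500 nM by a log2 change of -0.19 (adjusted p = 0.00886, 0.0522 without replicate 3 of that combination and 0.151 on equal total FPKM) and at 2 µM its change was -0.10, not called.

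The core CPSF subunits moved unevenly in WT. CPSF2, the catalytically inactive relative of the endonuclease, was lower in all 6 treatments and under all 4 scalings: 26.0 ± 1.31 and 25.02 ± 0.866 FPKM with YKL at 500 nM and 2 µM, 28.2 ± 1.39 with THZ531, 18.8 ± 0.511 with THZ1, 22.3 ± 0.853 and 26.7 ± 2.40 with the combination at 500 nM and 2 µM, against 34.1 ± 0.732 with DMSO (SD, n = 3 each). Its largest change was with THZ1, where libraries read 18.5, 18.4 and 19.4 FPKM against 33.4, 34.2 and 34.8 with DMSO (log2 -0.83, SE 0.056, adjusted p = 2.92e-14). All CPSF2 libraries of the 6 treatments lay below all DMSO libraries. The fall with THZ531 (log2 -0.27, adjusted p = 0.000244) was -0.20 and not called on spike-ins.

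CPSF4, a zinc finger subunit that contacts the poly(A) signal, was also lower in all 6 WT treatments as deposited. Its change with YKL 500 nM was 0.02 when libraries were scaled to equal total FPKM. On that scale the falls with YKL 2 µM (-0.046) and THZ531 (-0.12) were not called either, and the THZ531 fall was not called on spike-ins (-0.13). As deposited, the log2 changes ran from -0.19 with THZ531 to -0.48 with THZ1, with group means of 18.01 to 22.2 FPKM in treated cells against 25.5 ± 0.346 with DMSO. CPSF3, the endonuclease, had the lowest libraries of all 14 groups in WT with THZ1, at 44.3, 45.4 and 47.9 FPKM. WT libraries with DMSO read 75.2, 67.0 and 66.1 FPKM. These groups were wide apart (log2 -0.58, adjusted p = 5.86e-10), and the fall held under all 4 scalings. With the combination at 2 µM CPSF3 was higher, at 81.9, 99.3 and 89.5 FPKM (log2 0.37, adjusted p = 2.16e-06), but -0.74 on spike-ins. Its smaller calls, 0.18 with YKL 500 nM and -0.15 with THZ531, were lost without YKL replicate 2 or DMSO replicate 2 or 3 (adjusted p up to 0.0741) and without any 1 THZ531 library or DMSO replicate 1 (up to 0.27).

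CPSF1, the scaffold subunit, moved in both directions in WT. Its libraries read 32.5, 32.8 and 28.6 FPKM with THZ1 and 16.3, 12.3 and 14.03 with the combination at 2 µM, against 23.0, 25.3 and 23.8 with DMSO. The THZ1 libraries were all above and the combination libraries all below those with DMSO (log2 0.37 and -0.73, adjusted p = 3.98e-05 and 1.17e-10). The fall was called under all 4 scalings, and the THZ1 rise was -1.94 on spike-ins. With YKL alone CPSF1 differed from DMSO, as deposited, by 0.00 at 500 nM and -0.03 at 2 µM, with 95% intervals of -0.14 to 0.15 and -0.17 to 0.12. It was called higher on equal total FPKM (0.23 and 0.25, adjusted p = 0.0164 and 0.00861) and, at 500 nM, lower on spike-ins (-0.63, adjusted p = 9.71e-05). With the combination at 500 nM it was at 20.7 ± 0.932 FPKM (log2 -0.20, adjusted p = 0.0142), and this call was lost without replicate 3 of that group or DMSO replicate 2 (adjusted p up to 0.0731) and on equal total FPKM (-0.042).

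Among the CSTF subunits in WT, CSTF3, the scaffold of the complex, was higher as deposited where THZ531 was present. In C312S CSTF3 was at 87.9 ± 6.19 FPKM with THZ531 and 108 ± 8.25 with DMSO, whose libraries stood apart in total FPKM. In WT its libraries read 80.3, 77.7 and 78.2 FPKM with THZ531 and 77.5, 78.2 and 72.2 with the combination at 500 nM. They read 73.1, 86.4 and 77.7 with the combination at 2 µM, against 62.4, 61.2 and 62.1 with DMSO. These 9 libraries lay above the 3 DMSO libraries (log2 0.34, 0.29 and 0.34, adjusted p = 0.000214, 0.000588 and 5.74e-05), and on spike-ins the 2 combination changes were -0.09 and -0.76. With YKL alone, at 60.7 ± 2.71 and 61.8 ± 5.56 FPKM at 500 nM and 2 µM, and with THZ1, at 59.3 ± 2.41, CSTF3 was not called.

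CSTF1, the WD-repeat subunit, and CSTF2, the subunit that binds the GU-rich element, moved less in WT. CSTF1 was higher with YKL 500 nM and the combination at 500 nM and 2 µM, by 0.15, 0.15 and 0.17 on the log2 scale. On spike-ins these were -0.49, -0.23 and -0.92, and the -0.23 was not called (adjusted p = 0.0652). CSTF1 was lower with THZ1 by a change of -0.16 (adjusted p = 0.00073) under all 4 scalings. CSTF2 was at 49.2 ± 0.473 FPKM with THZ531 and 49.97 ± 2.70 with THZ1, against 44.4 ± 1.12 with DMSO (log2 0.15 and 0.17, adjusted p = 0.00214 and 0.000261), and the THZ1 value was -2.18 on spike-ins and -0.00 on equal total FPKM. The THZ531 rise was not called on spike-ins (0.22, adjusted p = 0.125). With YKL at 2 µM it was at 39.8 ± 1.502 FPKM (log2 -0.15, adjusted p = 0.00067), with 0.13 on equal total FPKM. The smaller change at 500 nM, -0.10, was lost without YKL replicate 1 or DMSO replicate 2 or 3 (adjusted p up to 0.186). How reads were split between CSTF2 and its retrocopy CSTF2T, and between CPSF1, CPSF4, NUDT21 or CSTF3 and the protein-coding genes that overlap them on the other strand, is not stated in the sources used here, so their values carry that uncertainty.

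The YKL dose made no called difference to any factor in either line. Against 500 nM, 2 µM gave 0 calls among the 10 in C312S (3.67% of all genes, 2.02% higher and 1.65% lower) and 0 in WT (6.18% of all genes, 2.14% higher and 4.04% lower), by limma. In WT the log2 changes lay between -0.14 and 0.11, and in C312S between -0.13 and 0.13. On spike-ins all 10 were higher at 2 µM in WT, where the median gene moved by 0.47.

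C312S and WT cells with DMSO differed in 8 factors, 6 higher and 2 lower in C312S (79.2% of all genes, 41.3% higher and 37.9% lower). CPSF1 was at 11.1, 12.02 and 11.6 FPKM in C312S against 23.0, 25.3 and 23.8 in WT (log2 -0.99, adjusted p = 8.73e-14), and PCF11 at 12.6 ± 0.342 against 15.0 ± 0.381 (log2 -0.23, adjusted p = 1.44e-06), both lower under all 4 scalings. CPSF3 was higher in C312S, at 134.6, 115.8 and 121.6 FPKM against 75.2, 67.0 and 66.1 (log2 0.83), as was CSTF3 at 108 ± 8.25 against 61.9 ± 0.645 (log2 0.79), with CPSF2 (0.60), NUDT21 (0.44) and CSTF1 (0.40). All of these 5 were lower in C312S on spike-ins. On equal total FPKM CPSF2 (0.11), NUDT21 (-0.063) and CSTF1 (-0.095) were not called. CPSF4 (0.14, adjusted p = 0.0385) lost its call without C312S replicate 2 or 3 or any 1 WT library (adjusted p up to 0.202). The contrast rests on the C312S DMSO libraries, whose total FPKM stood apart, and the line and that library property cannot be told apart here.

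Counts against DMSO in C312S rest on the same libraries. With YKL 500 nM 3 were higher and 5 lower (76.4% of all genes, 36.9% higher and 39.6% lower), and with YKL 2 µM 2 and 7 (75.8% of all genes, 36.6% higher and 39.2% lower). With THZ531 they were 4 and 6 (74.1% of all genes, 34.6% higher and 39.5% lower), with the combination at 500 nM 3 and 6 (73.4% of all genes, 35% higher and 38.4% lower) and at 2 µM 3 and 6 (68.7% of all genes, 32.8% higher and 35.9% lower). With THZ1 they were 4 and 4 (63.6% of all genes, 33.9% higher and 29.7% lower). CPSF1 shows how: it was at 24.3 ± 0.474, 22.4 ± 0.870, 22.6 ± 1.08, 22.5 ± 2.19 and 19.0 ± 1.56 FPKM in the first 5 of these groups and at 14.1 ± 0.225 with THZ1, against 11.6 ± 0.475 with DMSO. CPSF2 had 31.6 ± 0.434, 31.1 ± 1.91, 30.7 ± 1.43, 30.1 ± 1.55 and 29.9 ± 1.65 FPKM in the first 5 and 36.2 ± 0.385 with THZ1, against 52.5 ± 3.97 with DMSO. The means of the first 5 groups lay between 29.9 and 31.6 FPKM for CPSF2, whichever compound they held, and between 19.0 and 24.3 for CPSF1. The DMSO group was at one end of the line's order for both genes. CPSF6 went otherwise, with DMSO at 28.3 ± 1.66 FPKM inside the span of the first 5 groups. That span ran from 24.3 ± 0.606 with YKL 2 µM to 31.0 ± 2.199 with THZ531. On spike-ins the 10 factors were called higher in 4 of these 5 groups, and 8 of 10 with the combination at 2 µM.

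Setting a combination against THZ531 leaves the C312S DMSO libraries out, and here the lines could be compared directly. In C312S, adding 500 nM left 0 of 10 factors called (0.577% of all genes, 0.39% higher and 0.187% lower), with changes between -0.13 and 0.09, and adding 2 µM gave 3 higher and 3 lower (34.8% of all genes, 18.5% higher and 16.3% lower); both counts were the same when the C312S DMSO and THZ1 libraries were left out of the fit. On spike-ins all 10 were called lower at each dose, where the median gene moved by -0.34 at 500 nM and -0.68 at 2 µM. At 2 µM CPSF6 was at 24.9 ± 0.913 FPKM against 31.0 ± 2.199 with THZ531 (log2 -0.31, adjusted p = 2.59e-06), and PCF11 at 14.6 ± 0.0955 against 16.2 ± 0.480 (log2 -0.14, adjusted p = 0.00569), while CPSF3 was higher by 0.28 but lower on spike-ins. CPSF1 was lower by a change of -0.24, and CSTF2 was higher by 0.12 but -0.65 on spike-ins. The CPSF1 call was lost without combination replicate 3 or THZ531 replicate 1 (adjusted p up to 0.0843), and the CSTF2 call without combination replicate 1 or THZ531 replicate 1 (up to 0.0824).

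The difference between the lines in the effect of the combination over THZ531, C312S minus WT, was largest for CPSF6. At 500 nM it was 0.99 on the log2 scale (SE 0.0606, 95% interval 0.86 to 1.11, adjusted p = 3.71e-14), from a change of -0.13 in C312S and -1.12 in WT. At 2 µM it was 0.87 (0.74 to 0.99, adjusted p = 5.02e-13), from -0.31 in C312S and -1.17 in WT. PCF11 differed by 0.44 and 0.52 (SE 0.0533, adjusted p = 5.68e-08 and 1.51e-09), and both genes kept these differences under the 4 scalings. Over all 10, 5 differences were positive and 0 negative at 500 nM (41.5% of all genes called, 20.5% positive and 21% negative), and 5 positive and 1 negative at 2 µM (53.1% of all genes, 25.9% positive and 27.2% negative). CSTF2 (0.23 and 0.33) and CPSF4 (0.22 and 0.23) were positive at both doses, CPSF2 (0.29) at 500 nM and CPSF1 (0.40) at 2 µM, while CPSF3 was at -0.24 at 2 µM. On spike-ins the calls of CSTF2, CPSF4 and CPSF2 at 500 nM were lost (adjusted p up to 0.194), and those of CSTF2 and CPSF4 also on equal total FPKM (up to 0.118). The CPSF4 call at 500 nM was lost without replicate 2 or 3 of the C312S combination, replicate 1 or 2 of C312S THZ531, replicate 3 of the WT combination or replicate 1 of WT THZ531 (adjusted p up to 0.0936). That at 2 µM was lost without replicate 2 or 3 of the C312S combination, replicate 1 of C312S THZ531, replicate 3 of the WT combination or replicate 1 of WT THZ531 (up to 0.0745). The CPSF3 call was lost without replicate 2 of either combination, replicate 3 of C312S THZ531 or replicate 1 of WT THZ531 (up to 0.0897), and its value was 0.16 on spike-ins.

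**Figure D3:**
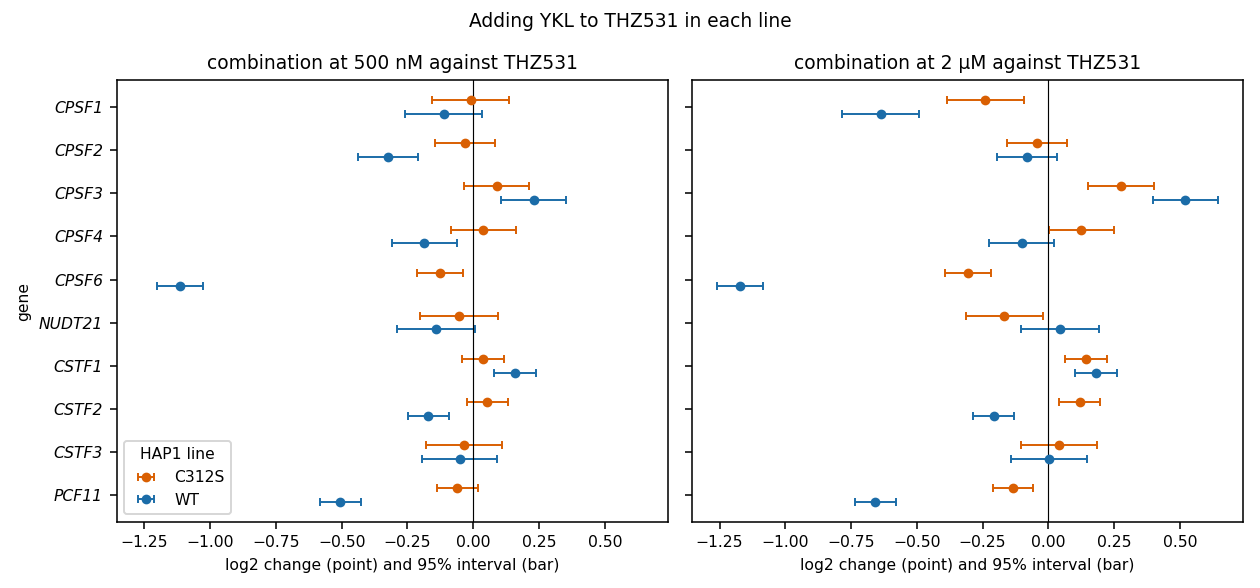
Log2 change (x axis, points, with 95% intervals as bars) of each factor mRNA (y axis) in the combination against THZ531 alone, at 500 nM on the left and 2 µM on the right, with C312S in orange above WT in blue. CPSF6 and PCF11 lie farthest apart between the lines at 500 nM, at -0.13 and -1.12 and at -0.06 and -0.50.

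THZ1, set against each line's own DMSO libraries, lowered the same 4 factors in both. The log2 change of CPSF2 was -0.52 in C312S and -0.83 in WT, that of CPSF3 -0.52 and -0.58, that of CPSF4 -0.41 and -0.48 and that of CSTF1 -0.24 and -0.16, each called under all 4 scalings in both lines. PCF11 was higher by 0.44 in C312S and 0.17 in WT, and CSTF2 by 0.33 and 0.17, but on spike-ins both are lower in WT and neither is called in C312S (0.23 and 0.11). CPSF6 in C312S was at 31.0 ± 1.58 FPKM with THZ1 against 28.3 ± 1.66 with DMSO (log2 0.13, adjusted p = 0.0112), a call lost without DMSO replicate 1 or THZ1 replicate 1 (adjusted p up to 0.129). This change was 0.03 on equal total FPKM and -0.086 on spike-ins, not called on either. The difference in the THZ1 effect, C312S minus WT, was called for 3 factors, all positive (42.2% of all genes, 22.4% positive and 19.8% negative): CPSF2 at 0.31, PCF11 at 0.27 and CSTF2 at 0.17, the last not without WT THZ1 replicate 3 (adjusted p = 0.0613). For CPSF6 it was 0.13 (95% interval 0.01 to 0.25, adjusted p = 0.0836). On spike-ins all 10 differences were positive.

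Other genes of 3′ end formation were counted in 3 lists beside the 10, for WT treatments against WT DMSO. Of 13 further cleavage and polyadenylation genes, 4 were higher and 7 lower with YKL 500 nM, and 3 and 7 with the 2 µM dose. With THZ531 the counts were 4 and 6, with THZ1 4 and 6, with the combination at 500 nM 4 and 7, and at 2 µM 6 and 7. Of 11 termination genes the counts were 1 and 6, 2 and 7, 6 and 2, 6 and 4, 4 and 5, and 4 and 6 in the same order. Of 14 Integrator genes, whose complex cleaves small nuclear RNAs and attenuates many early transcripts, they were 3 and 6, 2 and 6, 4 and 2, 2 and 6, 4 and 8, and 5 and 7. In these 6 comparisons 63%, 65.3%, 46.9%, 68.8%, 68.2% and 77.1% of all genes were called, in the same order. The list medians lay between -0.30 and 0.23 in these comparisons, beside medians of all genes within -0.01 and 0.01. The values of these lists are as deposited, and the shift of the median gene under other scalings is given further on.

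The symplekin gene SYMPK codes for a scaffold of the cleavage machinery. It was among the 3 largest falls over the 3 lists in each of the 6 WT treatments. It was at 14.4 ± 0.493 and 15.5 ± 0.432 FPKM with YKL at 500 nM and 2 µM, 13.2 ± 0.842 with THZ1, 15.8 ± 1.40 with THZ531, 8.87 ± 0.533 with the combination at 500 nM and 6.67 ± 1.01 at 2 µM, against 26.5 ± 0.459 with DMSO. The combinations gave the lowest levels, with log2 changes of -1.48 and -1.85 (adjusted p = 1.75e-17 and 2.98e-20). CPSF7, a paralog of CPSF6 that can take its place in cleavage factor I, was among the 3 largest falls with YKL at both doses and with the combination at 500 nM, at 29.6 ± 1.06, 26.4 ± 0.738 and 25.1 ± 1.43 FPKM against 50.5 ± 0.796 with DMSO (log2 -0.75, -0.91 and -0.98, adjusted p = 2.88e-16, 1.44e-18 and 3.01e-19). NUDT21, which pairs with either of these large subunits, changed in WT by -0.27 and -0.16 with YKL at 500 nM and 2 µM.

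Other large falls were those of INTS3 with YKL at 500 nM and 2 µM (-0.75 and -0.81), INTS5 and PABPN1 with THZ531 (-0.56 and -0.50). So were those of SSU72, a phosphatase of the polymerase tail, with THZ1 and the combination at 500 nM (-0.79 and -0.99), PPP1R10 with THZ1 (-0.78), and INTS1 and PABPN1 with the combination at 2 µM (-1.40 and -1.32). The largest rises included RPRD1A, a binder of the polymerase tail, with YKL 500 nM, YKL 2 µM and the combination at 2 µM (0.58, 0.49 and 0.75), and ASUN, an Integrator subunit, with the same treatments and the combination at 500 nM (0.50, 0.40, 1.06 and 0.79). RPRD2 was higher with THZ531 (0.44) and with THZ1 (1.20), where it was at 22.6 ± 0.594 FPKM against 9.34 ± 0.883 with DMSO. FIP1L1, a CPSF subunit that binds U-rich RNA and the poly(A) polymerase, was higher with THZ531 (0.30) and the combination at 500 nM and 2 µM (0.46 and 0.72). CLP1, the partner of PCF11 in cleavage factor II, was higher with THZ1 and the combination at 500 nM (0.70 and 0.41), SCAF4 with THZ1 (0.73), INTS10 with THZ531 (0.31) and INTS4 with YKL 500 nM (0.24).

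**Figure D4:**
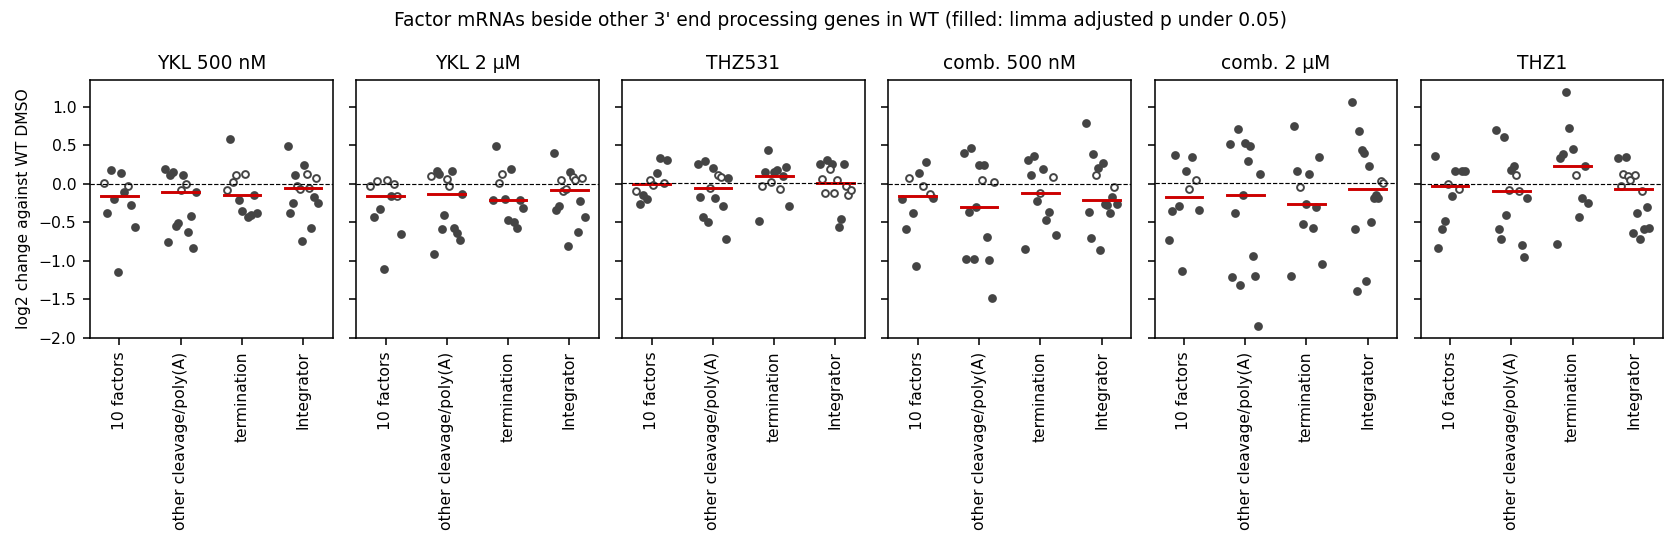
Log2 change against WT DMSO (y axis) of the 10 factors and of the 13 further cleavage and polyadenylation, 11 termination and 14 Integrator genes (x axis) in each WT treatment; filled points passed limma's adjusted p under 0.05, red lines are list medians and the dashed line is the median of all genes. The lowest points with the combination at 2 µM are SYMPK at -1.85 and INTS1 at -1.40.

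SYMPK and CPSF7, named here after their values were seen, also differed between the lines. The effect of the combination over THZ531, C312S minus WT, was 0.61 and 0.71 for SYMPK at 500 nM and 2 µM and 0.73 and 0.81 for CPSF7 (adjusted p = 1.56e-05, 9.79e-07, 1.36e-11 and 8.52e-13). In C312S SYMPK changed by -0.16 at 500 nM, which was not called, and by -0.43 at 2 µM, and CPSF7 by -0.07, not called, and -0.23. Of all genes, 41.5% at 500 nM and 53.1% at 2 µM were called for the difference between the lines. WT combination libraries that helped to name SYMPK and CPSF7 enter that difference too. These values are as deposited.

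How libraries are put on 1 scale decides several directions. As deposited, the median gene moved by -0.03 to 0.03 in the 22 comparisons, so the changes above are relative to the median gene. On spike-in RNAs the median gene moved in WT by -0.58 and -0.10 with YKL at 500 nM and 2 µM, and by -0.34 and -0.93 with the combination at these doses. With THZ1 it moved by -1.99, with THZ531 by 0.08, and in C312S against WT with DMSO by -1.12. On equal total FPKM these shifts were 0.20, 0.25, 0.14, -0.03, -0.15, 0.08 and -0.36. When and in what amount spike-ins were added is not stated in the sources used here. On spike-ins CPSF6 lay below these median shifts, at -1.78 and -1.23 with YKL at 500 nM and 2 µM and at -1.46 and -2.19 with the combinations, and so did PCF11, at -1.19, -0.78, -0.56 and -1.39 in the same order.

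**Figure D5:**
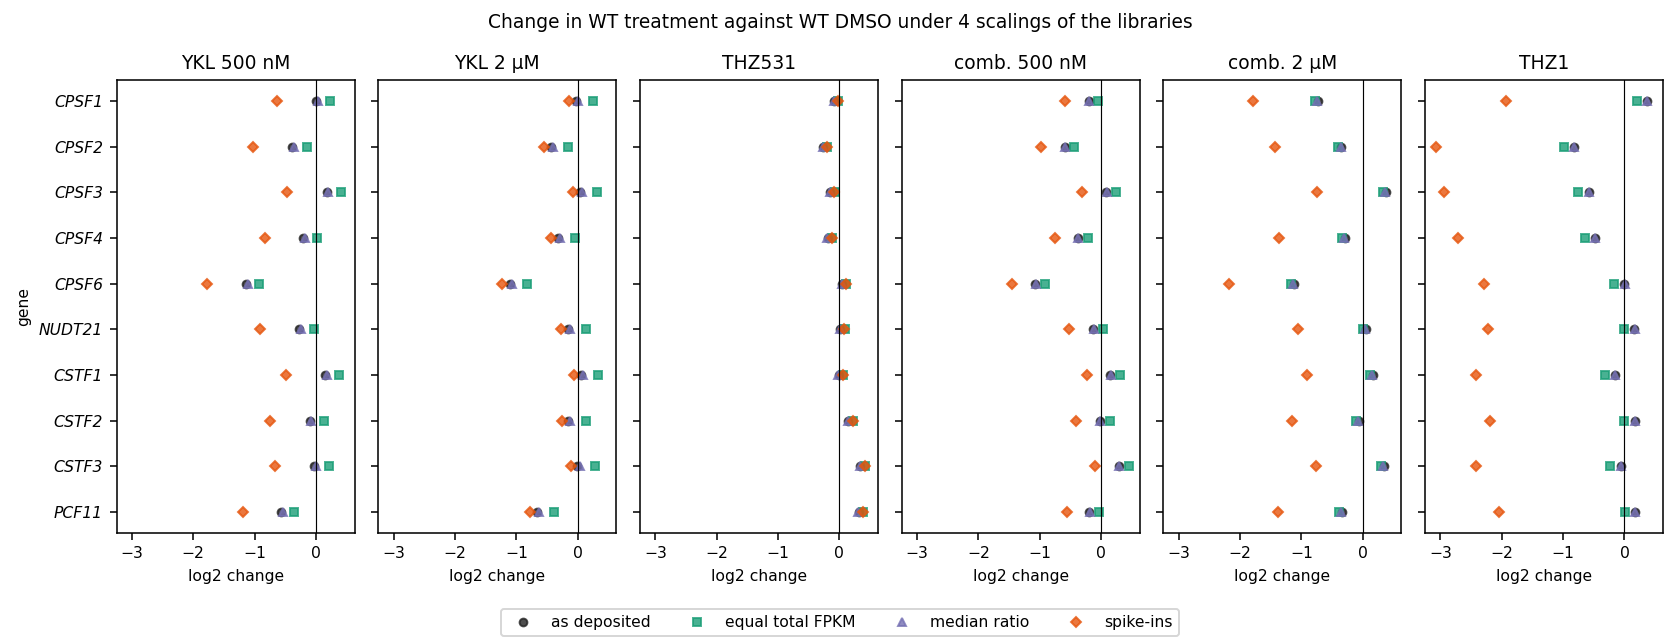
Log2 change (x axis) of each factor mRNA (y axis) in WT treatments against WT DMSO with FPKM as deposited and after 3 other scalings of the libraries. Spike-in scaling moves all genes together, most with THZ1, where the 10 factors lie between -3.07 and -1.94, and CPSF6 stays below 0 under all 4 scalings in the 4 treatments with YKL.

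Over the 14 group means of log2(FPKM + 1), each of 3 libraries and from both lines, the factors did not vary as 1 block. Pearson's r over the 45 pairs had a median of 0.36, with 13 pairs over 0.5 and 5 under -0.5. CPSF3 and CSTF1 were the most alike at 0.92, CPSF6 and PCF11 reached 0.82, and CPSF1 ran against CPSF3 at -0.87. Among 12806 other genes, those most like CPSF6 were EWSR1 and HNRNPH1, at 0.99 and 0.98, and those most like PCF11 were NOL9 and QARS, at 0.96 and 0.95. EHMT1 and SBF1 were most like CPSF1 at 0.99 each, BFAR and ZSCAN26 most like CPSF2 at 0.98 each, and MRPL43 and C14orf119 most like CPSF3 at 0.98 each. For CPSF4 they were SPC24 and TOE1 at 0.98 each, and for NUDT21 SRP9 and MICU2 at 0.97 each. For the CSTF subunits they were, for CSTF1, C5orf34 and CEP57L1 at 0.96 each, for CSTF2 RAB35 at 0.96 and BYSL at 0.95, and for CSTF3 RBMX2 at 0.98 and LYN at 0.97. With so many genes compared over so few means, values this high are a description only.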

How the data were processed

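Polyadenylated RNA of 42 libraries in 14 groups of 3 was analysed. The deposited values are FPKM per gene, per the table itself, and HISAT2 2.0.4, Cufflinks 2.2.1, Cuffnorm and hg19 are named, with no order, per the submitters' processing notes. The normalization setting and whether counting used strand are not given in the sources used here. The table has 26320 rows, of which 92 are spike-ins. Groups came from the treatment and cell line labels, and all columns matched a sample (0 unmatched).

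The authors' FPKM were set to log2(FPKM + 1), which understates the change of low genes. Differences were tested with limma 3.58.1 (R 4.3.3, with data.table, version 1.17.8): 14 group means over 42 libraries, a trend on expression, 22 comparisons, Benjamini-Hochberg adjusted p under 0.05 over 12816 genes each, two-sided, with 95% intervals. No count model was used. Libraries of a group correlated at 0.97 or more, and 0 columns were identical. The fit was tested on simulated data.

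Alternatives were a pseudocount of 0.1, no filter on low values, 3 other scalings (total FPKM, median ratio over 10376 genes, 23 spike-ins), only the groups compared, a replicate block and leaving out each library. A fit without the C312S DMSO and THZ1 libraries was chosen after seeing the data. The members, the gene lists and markers were chosen with earlier results of these data known. All 10 members were named throughout, and from the 3 other lists, per WT treatment, the 3 called genes with the largest rise and the 3 with the largest fall; 1 gene that this rule names is not reported here. For likeness the 2 genes with the highest r were named. Overlapping genes were read from GENCODE 29 by name, and promoter windows from RefSeq. Python 3.11.15 with pandas 2.3.3 and matplotlib 3.10.9 drew the plots.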

Additional observations from a re-analysis of the deposited data

Results flagged for a closer look

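For 14 results the effect of a compound differed between C312S and WT cells by limma's test of the difference itself, which is what marked them; each value is the log2 change in C312S minus that in WT. In these 3 contrasts 41.5%, 53.1% and 42.2% of all genes were called, so 14 of 30 is near the share of all genes. For the combination at 500 nM over THZ531 these were CPSF6 at 0.99, PCF11 at 0.44, CPSF2 at 0.29, CSTF2 at 0.23 and CPSF4 at 0.22. For the combination at 2 µM over THZ531 they were CPSF6 at 0.87, PCF11 at 0.52, CPSF1 at 0.40, CSTF2 at 0.33, CPSF4 at 0.23 and CPSF3 at -0.24. For THZ1 against DMSO they were CPSF2 at 0.31, PCF11 at 0.27 and CSTF2 at 0.17, and these use the C312S DMSO and THZ1 libraries, whose total FPKM stood apart. CPSF6 and PCF11 were the factors marked at both doses of the combination that kept their call under all 4 scalings at each dose. What the difference between the lines comes from was not tested.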

How the results depend on the processing

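Counts of called factors stayed within 1.5 times their value in all 22 comparisons with a pseudocount of 0.1, no filter on low values, median-ratio scaling, only the groups compared or any 1 library left out, and in the 14 comparisons that the fit without the C312S DMSO and THZ1 libraries can make. Of the changes of single factors, 967 kept their side of the threshold on leaving out 1 library, 45 lost a call and 8 gained one. Changes near 0 that were not called could change sign, as CPSF1 with WT YKL 500 nM did (-0.026 to 0.041). Pseudocount 0.1 changed no call, and none of these alternatives reversed a called direction.

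Scaling did. Of the changes of single factors, 17 lost a call and 13 gained one on equal total FPKM, and 10 lost and 20 gained one on spike-ins, beside those that turned. On equal total FPKM the count for WT YKL 2 µM became 8 (5 higher, 3 lower). These single changes turned: with WT YKL 500 nM CPSF4 0.024, CSTF2 0.13 and CSTF3 0.21; with WT YKL 2 µM CPSF1 0.25, CSTF2 0.13 and CSTF3 0.28; with WT THZ1 NUDT21 -0.0076 and CSTF2 -0.00042; with the WT combination at 500 nM CSTF2 0.14; and in C312S against WT with DMSO CPSF4 -0.35, CPSF6 -0.46, NUDT21 -0.063 and CSTF1 -0.10.

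On spike-ins the counts became 2 for WT THZ531 (2 higher), 4 for C312S THZ1 (4 lower), 10 for the THZ1 effect between lines, 10 for the WT combination at 2 µM against THZ531, 10 for each C312S combination against THZ531 (all lower), 2 for the difference between lines at 500 nM and 10 for WT YKL 2 µM against 500 nM. Turned with WT YKL 500 nM were CPSF1 -0.63, CPSF3 -0.47 and CSTF1 -0.49; with WT THZ1 CPSF1 -1.94, NUDT21 -2.23, CSTF2 -2.18 and PCF11 -2.04; with the WT combination at 500 nM CPSF3 -0.30, CSTF1 -0.23 and CSTF3 -0.093, and at 2 µM CPSF3 -0.74, NUDT21 -1.06, CSTF1 -0.92 and CSTF3 -0.76. With C312S THZ1 CPSF6 was -0.086. In C312S against WT with DMSO CPSF2 was -0.81, CPSF3 -0.61, CPSF4 -1.25, CPSF6 -1.36, NUDT21 -0.99, CSTF1 -1.003 and CSTF3 -0.64. For the THZ1 effect between lines CPSF1 was 1.99, NUDT21 1.96 and CSTF1 1.99. Against THZ531, the WT combination gave CPSF3 -0.22 and CSTF1 -0.29 at 500 nM, and CPSF3 -0.66, NUDT21 -1.14, CSTF1 -0.97 and CSTF3 -1.18 at 2 µM; the C312S combination at 2 µM gave CPSF3 -0.49, CPSF4 -0.63, CSTF1 -0.62, CSTF2 -0.65 and CSTF3 -0.73; and the difference between lines at 2 µM was 0.16 for CPSF3. These changes follow the shift of the median gene, since the scaling moves all genes of a library together. Same-numbered libraries deviated together with r from -0.16 to 0.25 over 57 pairs (median 0.010), and in 0 of 19 comparisons were all pairs over 0.1, so they share a number only; with it as a replicate block all 22 counts kept within 1.5 times and 1 call was lost, NUDT21 with WT THZ1 (log2 0.16, adjusted p = 0.0539).

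With no counts the depth behind each value is unknown, so factors near 10 FPKM carry more counting error than their SD over 3 libraries can show separately. Fits with 2 libraries in a group borrow their spread from the other groups.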
